A study of Mus musculus with 10 samples.

Results

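The Ccdc genes are mouse genes whose symbol stands for a coiled-coil domain, the rope-like helix by which proteins pair with each other. They are no single family, since the name was given to genes from a shared sequence feature before their function was known. Members were taken from the annotation alone, as the transcript features with exactly 1 gene symbol made of Ccdc and a digit, and where a gene had several features the one with the highest mean over all arrays was used. This gave 130 Ccdc genes of 19661 genes in all.

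RNA from the whole testis of 5 KO and 5 WT mice was measured on Affymetrix Mouse Gene ST arrays, with 1 mouse per array. KO mice were homozygous for the disrupted Crem gene (Crem-/-), which encodes the cAMP-responsive transcription factor CREM, and WT mice carried the intact gene. All 10 mice came from the mixed 129Pas and C57Bl/J strain, were 8 weeks old, received no treatment and were killed when the lights came on. The disruption was present in the whole animal, and according to the study KO sperm development stops in the round spermatid phase.

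Many Ccdc proteins of known function sit in the axoneme, the microtubule shaft of cilia and of the sperm tail. Ccdc39 and Ccdc40 form the ruler that spaces the repeating units along it, Ccdc65 belongs to the nexin-dynein regulatory complex that links neighbouring microtubule doublets, and Ccdc114 and Ccdc151 belong to the docking complex that holds the outer dynein arms. In testis, germ cells build this shaft in the spermatid phase, and some of its genes are already transcribed in spermatocytes. Other Ccdc proteins act at centrosomes, in mitochondria, in the Golgi and endosomes or in the nucleus.

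CREM binds the cAMP response element, whose full form reads TGACGTCA and whose short form reads TGACG. Both were searched on either strand of the RefSeq promoter windows of build GRCm38.p6, from 250 bases before to 50 bases after each start site, and the full form always contains the short one. Of the 130 Ccdc genes, 105 had a window. Excerpts are printed for the 4 Ccdc genes with a short element among those with a log2 fall of 1 or more, and for the 2 Ccdc genes with a full element that passed the test. Capitals mark the element as read on the gene's own strand, where CGTCA is the short form on the opposite strand.

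The short elements of the large falls lay at chr4:154042745-154042805 (minus strand), 100 bases before the start of Ccdc27, at chr1:182749199-182749259 (minus strand), 51 bases before that of Ccdc185, at chr10:18234982-18235025 (minus strand), 16 bases before that of Ccdc28a, and at chr19:56822236-56822296 (minus strand), 69 bases before that of Ccdc186.
Ccdc27: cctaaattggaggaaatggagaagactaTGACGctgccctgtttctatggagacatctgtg
Ccdc185: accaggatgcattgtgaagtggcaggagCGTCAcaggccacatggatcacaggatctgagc
Ccdc28a: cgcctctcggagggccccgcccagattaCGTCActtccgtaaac
Ccdc186: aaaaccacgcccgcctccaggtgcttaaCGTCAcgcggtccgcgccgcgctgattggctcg

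The full elements lay at chr19:10949267-10949317 (minus strand), 23 bases before the start of Ccdc86, which fell, and at chr2:69789547-69789610 (minus strand), 96 bases before that of Ccdc173, which rose.
Ccdc86: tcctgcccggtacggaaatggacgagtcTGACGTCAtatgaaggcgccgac
Ccdc173: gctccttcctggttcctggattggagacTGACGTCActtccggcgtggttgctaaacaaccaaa

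The full element was in the windows of 1 of 17 Ccdc genes that were lower in KO testis (5.88%), 1 of 44 that were higher (2.27%) and 1 of 44 that were not called, against 2.03% of all 27025 genes with a window. The short element was in the windows of 7 of 17 lower genes (41.2%), 13 of 44 higher genes (29.5%) and 9 of 44 genes not called (20.5%), against 23.0% of all genes. Of the 11 Ccdc genes with a window and a log2 fall of 1 or more, 4 held the short element and 0 the full one. These matches are a description of letters in a short window and were not tested, and binding of CREM was not measured here.

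Expression values are log2 levels, so a change of 1 is a doubling or a halving. KO was set against WT with limma over all 25689 features, and a gene is called lower or higher where the p-value adjusted over all of them was under 0.05. Crem itself had levels of 9.29, 9.29, 9.41, 9.01 and 9.18 in KO testis and 10.89, 11.04, 10.96, 10.93 and 10.94 in WT testis, so the groups did not overlap. Its change was -1.71 ± 0.07 (SE, n = 5 each; limma adjusted p = 3.0e-10). Whether its feature lies in the disrupted part of the gene was not given in the sources used here, so these levels alone cannot verify the genotype labels. Arrays correlated at 0.9919 to 0.995 within KO, 0.9936 to 0.9954 within WT and 0.9363 to 0.9519 between the groups.

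Markers of some cell types moved with genotype as well. All 6 elongating spermatid markers (Prm1, Prm2, Tnp1, Tnp2, Odf1, Akap4) were lower, with a summed linear signal of 3270 to 7555 in KO against 56227 to 67174 in WT arrays. So were 4 of 5 round spermatid markers, with sums of 8578 to 9836 against 15648 to 17259. Of these, Catsper3 (-5.44), Spaca1 (-4.29) and Tssk2 (-4.15) fell far and Acr fell less (-0.51), while Acrv1 was not called (0.15). None of the 6 pachytene spermatocyte markers was lower and 4 were higher, with sums of 17979 to 19413 in KO and 15803 to 18024 in WT. Among somatic cells, 3 of 4 measured Leydig cell markers (sums 8352 to 13986 in KO and 6336 to 7965 in WT) and 5 of 5 macrophage markers (1114 to 1943 in KO and 718 to 813 in WT) were higher, while 1 of 5 measured Sertoli cell markers was. Spermatogonial markers were higher in 2 of 5 and lower in 0, with sums of 2600 to 2996 in KO and 2301 to 2835 in WT. Over all genes 31.1% were higher and 13.2% lower, so the counts of higher Sertoli and spermatogonial markers lay near the share of all genes. No value can be at 0 on this scale. In whole tissue, fewer cells of a type and less RNA per cell cannot be told apart, which holds for every change given here, and the part of cell composition in the Ccdc changes was not tested.

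Most Ccdc genes did not fall in KO testis. Of 130, 20 were lower (15.4%, against 13.2% of all genes), 49 were higher (37.7%, against 31.1% of all genes) and 61 were not called, of which 19 had an unadjusted p under 0.05. The median change was 0.15 over the Ccdc genes and 0.07 over all genes. The share of Ccdc genes that fell was therefore near that of all genes.

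The 2 directions differed in size. Among the 20 lower Ccdc genes the median change was -1.69 and the range -4.85 to -0.17, against a median of -0.58 over all lower genes. Falls of at least 1 were seen in 12 Ccdc genes (9.23%, against 4.36% of all genes) and rises of at least 1 in 1 (0.769%, against 1.37%). The 49 higher genes changed by 0.19 to 1.02 with a median of 0.33, against a median of 0.34 over all higher genes. Between the 12 large falls, which ended at -1.21, and the 8 small ones, which began at -0.62, lay no Ccdc gene. Every KO array was below every WT array in 18 Ccdc genes (13.8%, against 10.7% of all genes), and every KO array was above every WT array in 34 (26.2%, against 22.0%).

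**Figure D1:**
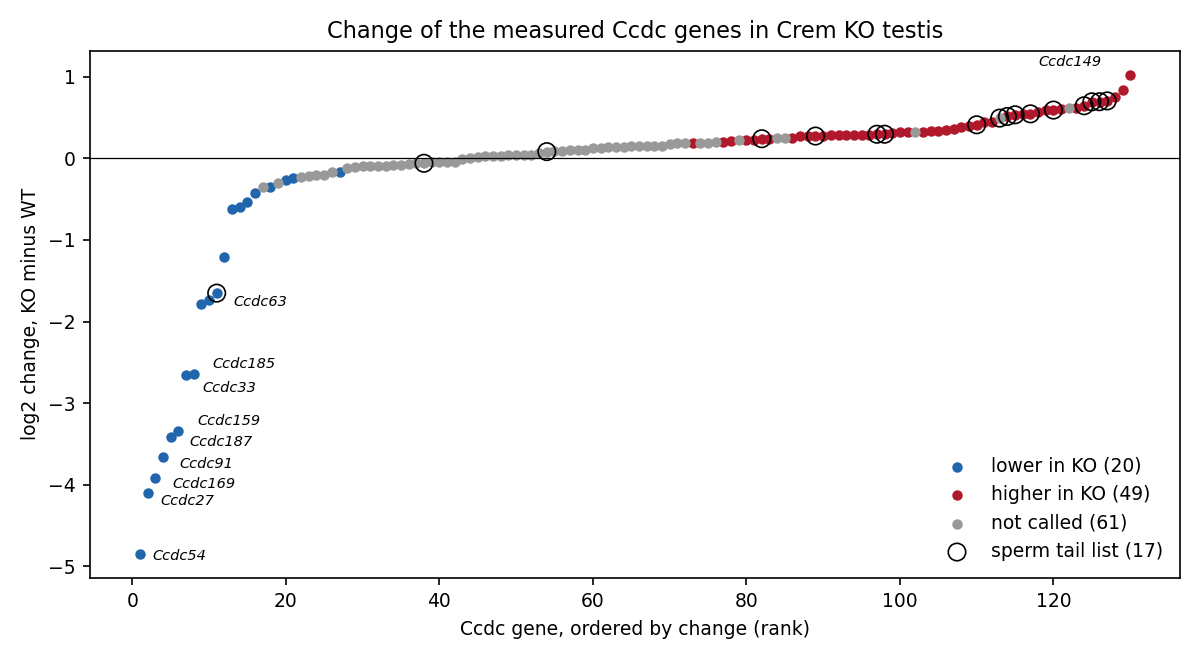
The 130 Ccdc genes ordered by their log2 change, KO minus WT, with 1 point per gene, coloured by call and ringed where the gene is on the sperm tail list. The 12 large falls form a steep arm down to -4.85, while the 49 rises form a flat arm that ends at 1.02.

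Ccdc54, a gene with no role on any of the lists used here, fell most among the Ccdc genes. Its level was 6.50, 7.36, 6.93, 6.16 and 5.86 in KO testis, against 10.82, 11.58, 11.73, 11.52 and 11.40 in WT testis. The mean of 6.56 ± 0.60 in KO was 28.8-fold lower than that of 11.41 ± 0.35 in WT (SD, n = 5 each), a change of -4.85 ± 0.25 (SE; limma adjusted p = 1.9e-09). All KO arrays were far below all WT arrays, although the spread within KO was wider than for the other large falls.

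Ccdc27 and Ccdc169, 2 further genes outside the lists, came next. Ccdc27 was at 5.15, 5.81, 5.72, 5.12 and 5.13 in KO and at 9.43, 9.72, 9.55, 9.50 and 9.22 in WT, a 17.1-fold fall (-4.10 ± 0.14, adjusted p = 4.2e-11). Ccdc169 was at 6.08, 6.58, 6.11, 5.60 and 5.66 in KO and at 9.95, 9.94, 9.95, 9.98 and 9.79 in WT, a 15.1-fold fall (-3.91 ± 0.15, adjusted p = 8.7e-11). In both genes the KO arrays were spread more widely than the WT arrays, without overlap between the groups. The SD was 0.35 in KO and 0.18 in WT for Ccdc27, and 0.40 in KO and 0.08 in WT for Ccdc169.

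Ccdc91 encodes a partner of the GGA adaptors, which sort cargo at the trans-Golgi network. It was at 8.48, 8.82, 8.81, 8.13 and 8.10 in KO and at 12.16, 12.13, 12.10, 12.17 and 12.09 in WT, a 12.7-fold fall (-3.66 ± 0.13, adjusted p = 4.7e-11). The SD was 0.35 in KO and 0.04 in WT, so the WT arrays were nearly equal while the KO arrays lay further apart. Ccdc186, which takes part in the making of dense-core vesicles in worm neurons and rat secretory cells, is the other member of the Golgi, endosome and actin list that fell. It was at 9.06, 9.32, 9.06, 9.08 and 9.07 in KO and at 10.42, 10.47, 10.40, 10.33 and 10 (rounded) in WT (-1.21 ± 0.09, adjusted p = 1.3e-07), the smallest of the 12 large falls.

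Ccdc187 had the lowest adjusted p of the Ccdc genes. Its levels were 6.60, 6.74, 6.74, 6.56 and 6.52 in KO and 9.95, 10.18, 10.02, 10.03 and 10.05 in WT, a 10.7-fold fall with little spread in either group (-3.42 ± 0.07, adjusted p = 9.2e-13). Ccdc185 was at 6.54, 6.80, 6.84, 6.54 and 6.67 in KO and at 9.16, 9.31, 9.17, 9.53 and 9.44 in WT (-2.65 ± 0.09, adjusted p = 2.6e-11). Neither gene has a role on the lists, and neither overlapped between the groups.

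Ccdc159 and Ccdc33 were on the list of genes tied to the head, acrosome or neck of sperm. Ccdc159 was at 6.33, 6.37, 6.82, 5.90 and 6.60 in KO and at 9.67, 9.83, 9.64, 9.78 and 9.85 in WT, a 10.2-fold fall (-3.35 ± 0.13, adjusted p = 1.3e-10). Ccdc33 was at 6.69, 7.01, 7.13, 6.79 and 6.59 in KO and at 9.64, 9.55, 9.26, 9.76 and 9.30 in WT, a 6.32-fold fall (-2.66 ± 0.12, adjusted p = 4.5e-10). Of the 5 measured genes of that list 3 were lower, 1 was higher and 1 was not called, with a median change of -0.24. Over all genes 13.2% were lower and 31.1% higher. The list was drawn up with earlier results of these data known, so its counts are a description. The calls outside the naming rule, given here after their values were seen, were small. Ccdc136, needed for the acrosome in mouse, was lower (-0.24 ± 0.06, adjusted p = 0.0041), and Ccdc62 was higher (0.27 ± 0.08, adjusted p = 0.017).

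Ccdc6 encodes a nuclear protein of the DNA damage response, known in human thyroid tumours as a fusion partner of RET. It was at 8.13, 8.13, 8.01, 8.00 and 7.97 in KO and at 9.83, 9.86, 9.78, 9.88 and 9.84 in WT, a 3.45-fold fall (-1.79 ± 0.06, adjusted p = 1.5e-11). Ccdc28a was at 8.19, 8.30, 8.04, 8.19 and 8.18 in KO and at 9.77, 10.17, 9.79, 9.71 and 10.15 in WT, a 3.33-fold fall (-1.74 ± 0.10, adjusted p = 4.6e-09). The KO arrays of both genes lay within a narrow band well below WT.

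**Figure D2:**
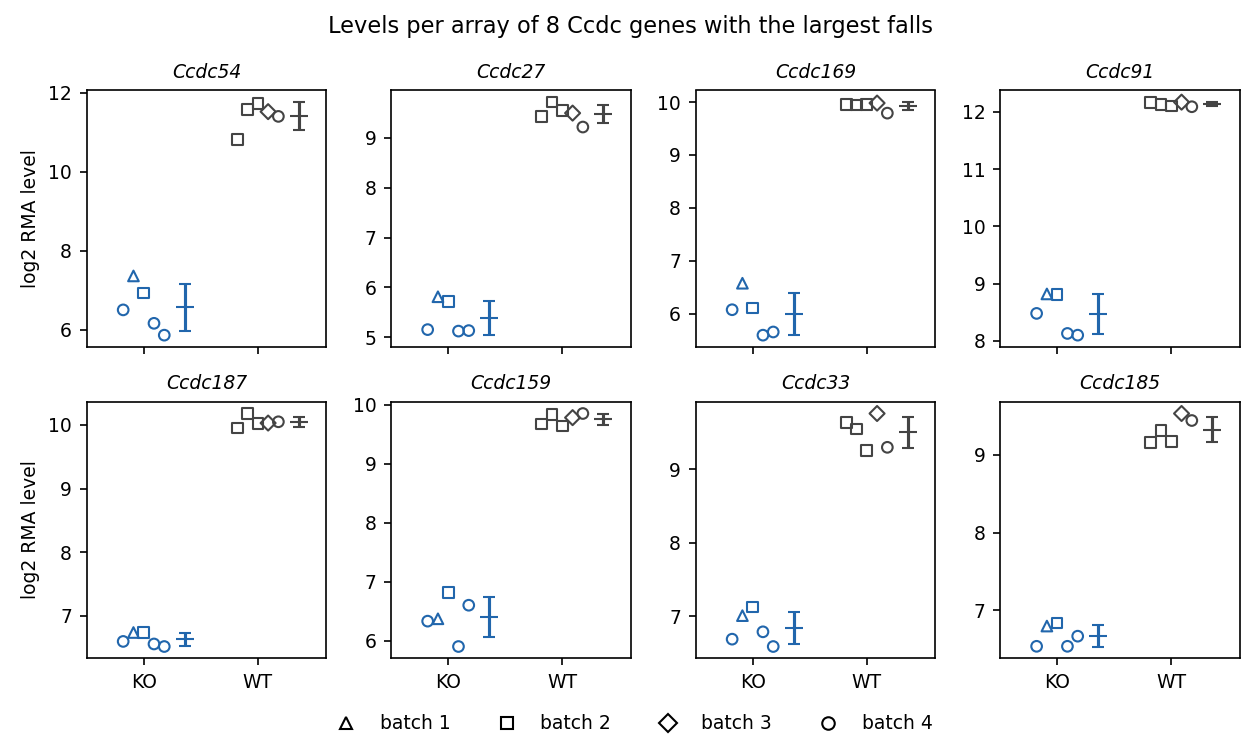
Log2 level per array of the 8 Ccdc genes with the largest falls, KO left of WT, with marker shapes for the labelled batch and a bar for the mean and SD of 5 arrays. The KO arrays lie below all WT arrays in each panel, and in Ccdc54 they run from 5.86 to 7.36.

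The signal left in KO testis, meaning the linear signal of a KO array in percent of the mean of the WT arrays, was computed for the 12 large falls. Array signal includes background from other sequences, so these shares are upper estimates of the RNA left. For Ccdc54 they were 2.1 to 5.92%, and for Ccdc186 41.2 to 49.6%. The median over the 12 genes was 11.7, 13.7, 15.4, 11.7 and 12.2% in KO replicates 1 to 5. KO replicate 2 or 3 held the highest share in 10 of the 12 genes. These were the KO arrays of batches 1 and 2, while the other 3 KO arrays were all of batch 4, so batch and mouse cannot be told apart for them. The pattern was not one of the Ccdc genes alone. All 6 elongating spermatid markers had their highest KO levels in KO replicates 2 and 3, with Prm1 at 9.62 and 9.66 there and at 6.69 to 8.18 in the other KO arrays. Among round spermatid markers Catsper3 and Spaca1 did likewise, while Tssk2, Acr and Acrv1 did not.

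**Figure D3:**
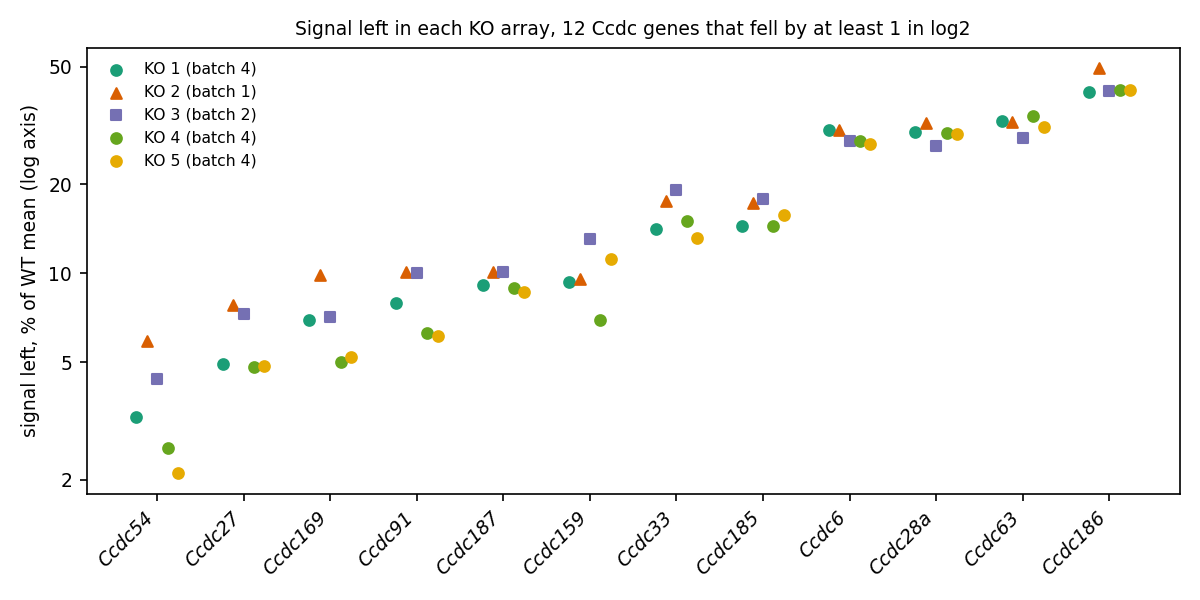
Linear signal left in each KO array, in percent of the mean of the WT arrays (log axis), for the 12 Ccdc genes with a log2 fall of 1 or more, with 1 point per KO array. The shares run from 2.1% in Ccdc54 to 49.6% in Ccdc186, and KO 2 or KO 3 is the highest point in 10 of 12 genes.

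The 8 smaller falls were Ccdc150 (-0.62), Ccdc182 (-0.59), Ccdc184 (-0.54), Ccdc25 (-0.42), Ccdc137 (-0.35), Ccdc163 (-0.27), Ccdc136 (-0.24) and Ccdc86 (-0.17), listed here after their values were seen. Ccdc137 and Ccdc163 overlapped between KO and WT, and the other 6 did not. Ccdc86 and Ccdc137, which both encode nucleolar proteins, had adjusted p-values of 0.028 and 0.027.

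The sperm tail genes mostly did not fall. The list of known sperm tail and axonemal members held 26 genes, named by their older Ccdc symbols where they have been renamed, and 25 were measured on a feature with 1 symbol. Of these 20 were higher, 2 were lower and 3 were not called, where 31.1% of all genes were higher and 13.2% lower. The 17 that still bear a Ccdc symbol in the annotation had a median change of 0.49, with 13 higher, 1 lower and 3 not called, and KO arrays lay above all WT arrays in 9, as they did in 22.0% of all genes. The 8 renamed genes had a median of 0.47, with 7 higher and 1 lower. The list was drawn up with earlier results of these data known, so its counts are a description. Motile cilia of the duct epithelium use many of the same proteins. Of the 5 genes listed as markers of ciliated duct cells, Dnah5 (0.96), Foxj1 (0.60), Dnah9 (0.37) and Tekt1 (0.31) were higher and Cfap126 (-0.53) was lower. Their sums were 2754 to 3558 in KO and 2653 to 3431 in WT. These sums came mostly from Tekt1 and Cfap126, with WT means of 10.51 and 10.22. Dnah5, Foxj1 and Dnah9, with WT means of 6.44 to 7.00, were above WT in every KO array. Whole testis RNA does not show which cells the signal of these 5 genes came from, so they are no measure of duct cilia here. The part of duct cilia in the tail gene changes was not tested.

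Ccdc63, which docks outer dynein arms in the sperm tail and is needed for tail formation in mouse, was the lower gene among the 17. It was at 8.56, 8.55, 8.36, 8.61 and 8.49 in KO and at 10.15, 10.18, 10.24, 10.23 and 10.03 in WT, a 3.14-fold fall with no overlap (-1.65 ± 0.06, adjusted p = 1.1e-10). Cfap100 (Ccdc37), which in Chlamydomonas helps to control the inner dynein arms, was the lower renamed gene. It was at 6.73, 6.87, 6.91, 7.06 and 6.87 in KO and at 7.70, 8.14, 8.09, 7.78 and 7.95 in WT (-1.04 ± 0.09, adjusted p = 7.4e-07).

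The other docking genes moved the opposite way from Ccdc63. Ccdc151 (Odad3) was at 10.61, 10.72, 10.33, 10.56 and 10.44 in KO and at 9.94, 9.85, 9.86, 9.92 and 9.86 in WT (0.64 ± 0.07, adjusted p = 8.5e-06). Ccdc114 (Odad1) was at 9.36, 8.98, 9.35, 9.17 and 9.11 in KO and at 8.85, 8.79, 8.89, 8.67 and 8.72 in WT (0.41 ± 0.08, adjusted p = 9.8e-04). Both were above WT in every KO array. Their partners in the complex, Armc4 and Ttc25, were also higher, by 0.36 and 0.51. The call of Armc4 was lost with batch as a block (0.34, limma adjusted p = 0.057) and in batch 2 alone (0.14, adjusted p = 0.57).

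The ruler genes both rose, Ccdc39 more than Ccdc40 by point estimate. Ccdc39 was at 11.52, 11.64, 11.47, 11.32 and 11.47 in KO and at 10.88, 11.02, 10.88, 10.96 and 11.12 in WT (0.51 ± 0.07, adjusted p = 6.3e-05). Ccdc40 was at 9.56, 9.62, 9.52, 9.43 and 9.43 in KO and at 9.34, 9.26, 9.15, 9.24 and 9.21 in WT (0.27 ± 0.06, adjusted p = 0.0026). The groups did not overlap in either gene, and the difference between the 2 changes was not tested. The call of Ccdc40 was lost in batch 2 alone (0.27), in batch 4 alone (0.26) and with housekeeping centring (0.17), and that of Ccdc39 in batch 4 alone (0.32).

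Subunits of the nexin-dynein regulatory complex were higher as well. Ccdc65 (Drc2) was at 12.16, 11.61, 11.95, 12.28 and 12.24 in KO and at 11.50, 11.58, 11.29, 11.68 and 11.51 in WT (0.53 ± 0.12, adjusted p = 0.0026), with KO replicate 2 inside the WT range. The renamed subunits Drc1 (Ccdc164) and Drc7 (Ccdc135) changed by 0.49 ± 0.10 and 0.38 ± 0.07, and Ccdc153 (Drc12) by 0.70 ± 0.10 (adjusted p = 6.4e-05). A chosen list of subunits and docking proteins that never bore a Ccdc symbol held 9 genes. It was drawn up with earlier results of these data known, so its counts are a description. All 9 were measured and all were higher (31.1% over all genes), by 0.24 to 0.97 with a median of 0.36. They were Iqca (0.97), Ttc25 (0.51), Iqcg (0.44), Iqcd (0.38), Armc4 (0.36), Fbxl13 (0.33), Gas8 (0.32), Tcte1 (0.25) and Drc3 (0.24), and the KO and WT arrays did not overlap in 5 of them, with KO above WT (22.0% over all genes). The calls of Drc3, Fbxl13 and Tcte1 were lost when single arrays were left out, at values of 0.20 to 0.21, 0.26 to 0.30 and 0.21 to 0.24, and 6 of the 9 genes were called with housekeeping centring (all but these 3) and with batch as a block (all but Armc4, Fbxl13 and Tcte1). Iqca stood out in this list, at 10.13, 10.11, 9.94, 10.21 and 10.18 in KO and 9.17, 9.17, 9.14, 9.07 and 9.17 in WT.

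Ccdc96 and Ccdc113 form a pair on the axoneme near the regulatory complex, as known from Tetrahymena. Ccdc96 was at 11.70, 11.76, 11.77, 11.73 and 11.58 in KO and at 11.14, 10.98, 11.02, 10.94 and 10.99 in WT (0.69 ± 0.06, adjusted p = 6.0e-07). Ccdc113 was at 12.45, 12.56, 12.45, 12.53 and 12.27 in KO and at 11.85, 11.92, 12.01, 12.02 and 11.72 in WT (0.54 ± 0.07, adjusted p = 5.6e-05). Neither overlapped between the groups.

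Ccdc105 (Tektl1), a tektin-like protein of the sperm doublets, was at 12.14, 11.97, 11.93, 12.16 and 12.02 in KO and at 11.39, 11.45, 11.37, 11.37 and 11.17 in WT (0.69 ± 0.07, adjusted p = 2.9e-06). Ccdc173 (Cfap210), which lies inside the doublet microtubules, was at 11.80, 11.81, 11.63, 11.82 and 11.74 in KO and at 11.08, 11.24, 11.23, 11.17 and 11.12 in WT (0.59 ± 0.06, adjusted p = 3.0e-06). The renamed genes Cfap53 (Ccdc11) and Cfap45 (Ccdc19) changed by 0.68 ± 0.06 and 0.65 ± 0.07, and all 4 were above WT in every KO array. Cfap58 (Ccdc147), needed for tail assembly in mouse, rose most on the tail list, at 10.70, 10.94, 10.51, 10.64 and 10.70 in KO and 9.73, 9.73, 9.77, 9.71 and 9.55 in WT (1.00 ± 0.08, adjusted p = 1.8e-07). Cfap65 (Ccdc108) and Bbof1 (Ccdc176) changed by 0.46 ± 0.07 and 0.45 ± 0.06.

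**Figure D4:**
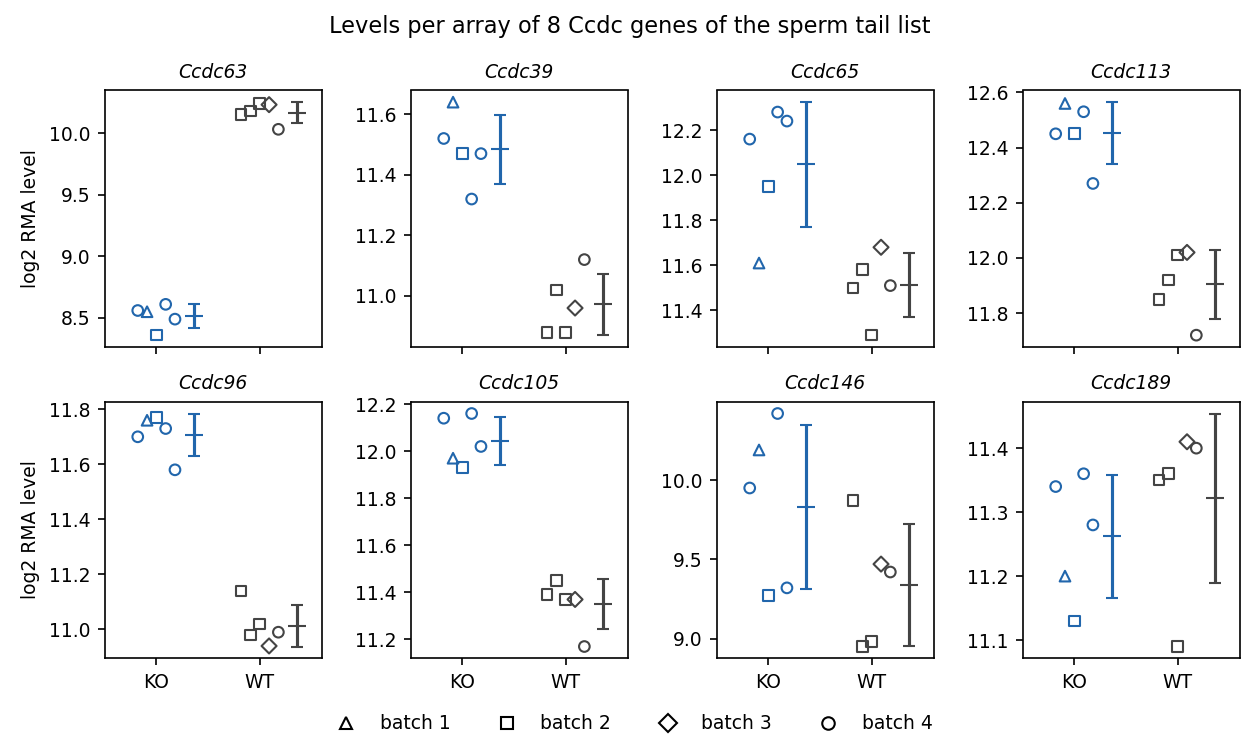
Log2 level per array of 8 Ccdc genes of the sperm tail list, KO left of WT, with marker shapes for the labelled batch and a bar for the mean and SD of 5 arrays. Ccdc63 lies lower in KO at 8.36 to 8.61, Ccdc39, Ccdc113, Ccdc96 and Ccdc105 lie higher in every KO array, and Ccdc65, Ccdc146 and Ccdc189 overlap between the groups.

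The remaining tail genes changed little or varied widely. Ccdc172, a partner of tektin in rat sperm, was higher by 0.29 ± 0.07 (adjusted p = 0.0057), with KO arrays at 8.20 to 8.45 and WT arrays at 7.86 to 8.21. Ccdc38 and Ccdc42, needed for tail formation in mouse, were called at 0.24 ± 0.08 and 0.30 ± 0.11 with adjusted p-values of 0.035 and 0.040, and their groups overlapped. With batch as a block the values were 0.15 and 0.26 and both calls were lost. The call of Ccdc38 was also lost without any one of KO replicates 1, 2, 4 and 5 or WT replicates 1, 2 and 3 (0.19 to 0.25), and that of Ccdc42 without any one of KO replicates 2 and 4 or WT replicates 2, 3 and 5 (0.21 to 0.30).

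Of the 3 tail genes that were not called, 2 varied little and 1 widely. Ccdc181 had levels of 12.07 to 12.21 in KO and 11.86 to 12.11 in WT (0.08 ± 0.06, adjusted p = 0.32), and Ccdc189 had 11.13 to 11.36 in KO and 11.09 to 11.41 in WT (-0.06 ± 0.07, adjusted p = 0.56), both with narrow spreads. Ccdc146, a microtubule-bound protein needed for sperm motility in mouse, was at 9.95, 10.19, 9.27, 10.42 and 9.32 in KO and at 9.87, 8.95, 8.98, 9.47 and 9.42 in WT. Its change of 0.49 ± 0.23 was as large as the list's median but lay within the spread of the arrays (adjusted p = 0.11). Without KO replicate 3 or without WT replicate 1 it was called at 0.63.

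**Figure D5:**
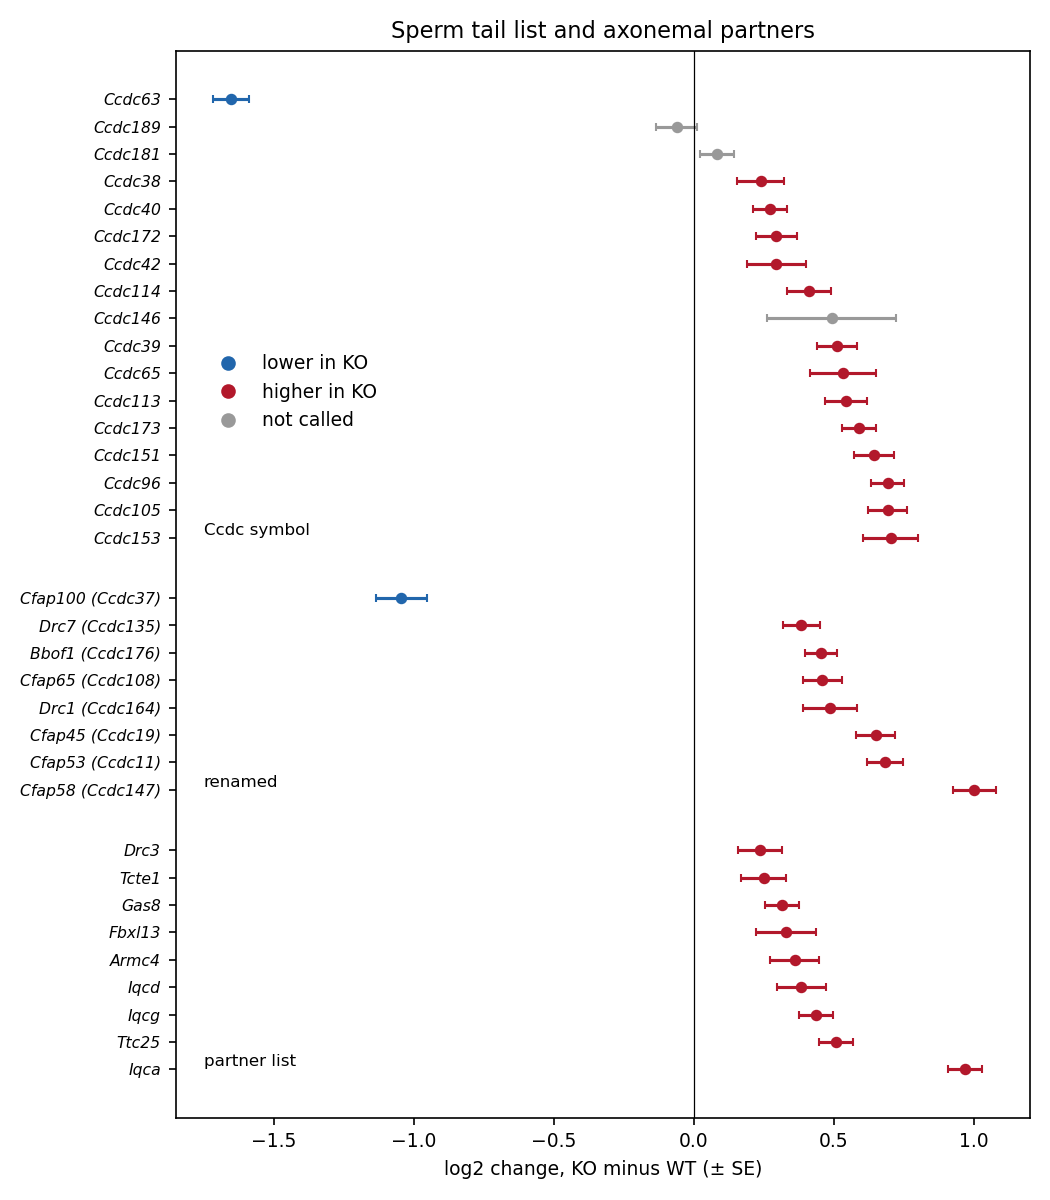
Log2 change, KO minus WT, with its standard error (n = 5 each) for the 17 sperm tail genes with a Ccdc symbol, the 8 renamed ones and the 9 genes of the partner list, coloured by call. Ccdc63 at -1.65 and Cfap100 at -1.04 stand left of 0 among genes that lie mostly between 0.24 and 1.00.

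Ccdc149 had the largest rise of the Ccdc genes and the only one of at least 1. Its levels were 7.79, 7.92, 7.88, 7.80 and 7.79 in KO and 6.83, 6.81, 6.88, 6.80 and 6.73 in WT (1.02 ± 0.05, adjusted p = 3.0e-09). Its other feature changed by 0.09 and was not called, so the rise was that of 1 of 2 features. Ccdc34, needed for the sperm tail in mouse, was not on the sperm tail list, which is therefore not complete. It was at 10.14, 10.52, 10.22, 10.42 and 10.40 in KO and at 9.38, 9.37, 9.59, 9.65 and 9.53 in WT (0.83 ± 0.08, adjusted p = 3.1e-06). Ccdc148 was at 9.36, 9.07, 9.12, 9.39 and 9.15 in KO and at 8.22, 8.59, 8.48, 8.51 and 8.54 in WT (0.75 ± 0.09, adjusted p = 1.1e-05). The next largest rises were the tail genes Ccdc153, Ccdc105 and Ccdc96.

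Of the other groups, the centrosome and cilium base list had 10 measured Ccdc genes, of which 0 were lower and 3 higher, with a median change of 0.09. The mitochondrial list had 4, of which 0 were lower and 2 higher (median 0.18). The Golgi, endosome and actin list had 9, with 2 lower and 3 higher (median 0.06), and the nuclear list 9, with 3 lower and 2 higher (median 0.13). The 76 Ccdc genes on no list, with Ccdc34 among them, had 11 lower and 25 higher (median 0.11). Over all genes 13.2% were lower and 31.1% higher. The counts of the group on no list and of the centrosome list thus gave shares of higher genes near the background. Of the 12 large falls 6 were on no list, namely Ccdc54, Ccdc27, Ccdc169, Ccdc187, Ccdc185 and Ccdc28a.

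The renamed members of these lists included large falls too, which the rule on symbols leaves outside the 130 and which are named here after their values were seen. Sgf29 (Ccdc101), a histone reader of the SAGA complex, was at 8.07, 8.08, 8.35, 7.88 and 7.98 in KO and at 11.50, 11.49, 11.49, 11.47 and 11.43 in WT (-3.40 ± 0.08, adjusted p = 2.6e-12). Mcu (Ccdc109a), the pore of the mitochondrial calcium uniporter, was at 6.68, 6.81, 6.66, 6.35 and 6.55 in KO and at 8.98, 9.09, 8.89, 8.90 and 8.79 in WT (-2.32 ± 0.09, adjusted p = 6.5e-11). Both fell in every KO array. Of the renamed genes on the nuclear list 2 of 6 were lower and 3 higher, and on the mitochondrial list 1 of 4 was lower and 3 higher. On the centrosome list 0 of 4 were lower and 2 higher, and on the Golgi, endosome and actin list 0 of 2 were lower and 1 higher. Over all genes 13.2% were lower and 31.1% higher. The largest rise among the renamed genes of these lists was that of Cwc25 (Ccdc49), at 0.84. The 3 meiosis genes that once had a Ccdc symbol were Iho1 (0.68, called higher), Terb1 (0.18) and Kash5 (0.10), the last 2 not called.

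Of the 130 genes, 5 had more than 1 feature. Ccdc180 had 27, all called higher, by 0.25 to 0.87 with a median of 0.59, and its chosen feature changed by 0.57. Ccdc141 had 5 features with 3 higher, Ccdc162 had 2 with both higher and Ccdc12 had 2 with 1 higher, and no feature of the 5 genes was lower. A further 4 features carried a Ccdc symbol among several and were not used.

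Some genes that were not called varied widely within a group, and they are named here after their values were seen. Ccdc80, which encodes a secreted matrix protein, was at 6.95, 8.23, 7.04, 6.95 and 8.26 in KO and at 8.21, 6.77, 6.91, 7.60 and 7.41 in WT (0.11 ± 0.32, adjusted p = 0.83). Ccdc7a was at 9.94, 10.47, 10.32, 10.39 and 10.50 in KO and at 9.22, 9.64, 9.34, 9.55 and 10.77 in WT, where WT replicate 5 was above every KO array (0.62 ± 0.24, adjusted p = 0.051).

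The labels give 4 batches. In batch 2 there was 1 KO array beside 3 WT arrays, and in batch 4 the numbers were 3 and 1, while KO replicate 2 and WT replicate 4 each had a batch of their own. With batch as a block 19 Ccdc genes were lower and 39 higher, and within batch 2 these counts were 16 and 16 and within batch 4 14 and 15. Over all genes, 12% were lower and 26.3% higher with the block, 7.89% and 11.2% in batch 2, and 8.06% and 9.67% in batch 4, so fewer genes of any kind were called higher within a batch. All 12 large falls were called lower in each of these fits, with values of -4.45 in batch 2 and -5.22 in batch 4 for Ccdc54. Of the 17 tail genes, 11 were higher with the block, 8 in batch 2 and 7 in batch 4, with median changes of 0.43, 0.44 and 0.48, and Ccdc63 was lower in each. Centring the arrays on 7 housekeeping genes shifted the median of all genes by -0.10. It gave 29 lower and 28 higher Ccdc genes, so the higher ones made up 49.1% of the called genes, against 71.0% without it. All genes moved likewise, with 19.7% lower and 17.9% higher, so this shift was not one of the Ccdc genes alone.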

How the data were processed

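Whole testis RNA of 5 KO and 5 WT mice was measured on 10 Affymetrix Mouse Gene ST arrays, and grouping followed the labels. Normalisation by the authors used RMA as implemented in XPS, and the deposited values are log2 levels of transcript features, with array medians of 7.11 to 7.15. Package version and genome build were not given in the sources used here. Of 35557 rows 9868 held no value. Of the 25689 features tested 20777 had 1 gene symbol, 232 several and 4680 none, and several-symbol features were not used for genes. All 130 Ccdc genes were matched to RefSeq by their gene identifier.

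KO minus WT was fitted on all features with limma 3.58.1 (lmFit, eBayes) in R 4.3.3 and adjusted by Benjamini-Hochberg. The study's methods also name limma, with the false discovery rate held at 0.05. The study reported fewer genes in each direction than the 2599 lower and 6106 higher genes called here, and the reason was not tested. The number of arrays limits the precision, with a median SE of 0.0769 over the Ccdc genes. Genes named were Crem, every measured sperm tail gene, the 12 largest falls and 6 largest rises among called Ccdc genes whose groups did not overlap, and called partner genes. Members and lists were chosen with earlier results of these data known. Scaling, batch, weights, filters and left-out arrays were varied.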

Additional observations from a re-analysis of the deposited data

Results flagged for a closer look

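In 6 of 98 groups of 5 arrays looked at for the named genes, 1 array lay far from the other 4 by Dixon's criterion, which chance alone reaches in about 1 in 20 groups. In Ccdc186, KO replicate 2 was at 9.32 while the other KO arrays were at 9.06 to 9.08. In Ccdc181, KO replicate 2 was at 12.21 and the next KO array at 12.11. WT replicate 5 was the low array in Cfap58 (9.55, next 9.71), Ccdc105 (11.17, next 11.37) and Ccdc169 (9.79, next 9.94). In Ccdc189, WT replicate 3 was at 11.09 and the next WT array at 11.35. In Ccdc186, Cfap58, Ccdc105 and Ccdc169 the groups stayed apart with these arrays included.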

How the results depend on the processing

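The 12 large falls stayed called and Ccdc63 and Cfap100 stayed lower in all 23 alternatives. Centring on the housekeeping list gave 28 higher Ccdc genes and a median of 0.05. With this centring 9 of the 17 sperm tail Ccdc genes were higher and 1 was lower, with a median of 0.39. Of the 7 housekeeping genes 4 were themselves higher and 2 lower. Higher Ccdc genes numbered 16 in batch 2 alone and 15 in batch 4 alone, and higher sperm tail genes 8 and 7, with fewer arrays in each fit. Requiring a change of at least 1 left 12 lower and 1 higher Ccdc genes and 0 higher sperm tail genes. Leaving out 1 array at a time gave 43 to 52 higher and 19 to 23 lower Ccdc genes, a median of 0.13 to 0.16, and 11 to 14 higher sperm tail genes with 1 lower. Other scalings gave up to 59 higher and array weights 25 lower Ccdc genes. Of 49 named genes, 28 kept their side of the threshold in all 22 alternatives other than the minimum change. Ccdc38, Ccdc42, Drc3, Fbxl13 and Tcte1 lost it in 8 or more, and single arrays whose omission did so were KO replicates 2, 3 and WT replicates 4, 5 for Drc3, KO replicates 2, 4 and WT replicates 2, 3 for Fbxl13, and KO replicates 1, 4, 5 and WT replicates 2, 3 for Tcte1. Ccdc40 (0.17) and Ccdc172 (0.19) lost it with housekeeping centring. Ccdc146 passed at 0.63 without KO replicate 3 (adjusted p = 0.042) or WT replicate 1 (0.046). The sign turned in Ccdc181 with housekeeping centring (-0.02) and in Ccdc189 without KO replicates 2 and 3 (0.01), and the cause was not tested. No paired analysis was possible because the replicate numbers follow the order of deposition and pair no mice.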
